A study of Mus musculus with 6 samples.

Results

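The genes described here are 9 genes known from follicular helper T cells together with the cytokine IL-21: Il21 and its receptor gene Il21r, the transcription factor gene Bcl6, the costimulatory receptor genes Icos and Cd28, the adaptor gene Sh2d1a and the receptor gene Slamf6, the surface glycoprotein gene Cd200, and the coactivator gene Pou2af1. They were chosen by name out of 23393 gene rows, all 9 were found, and all 9 were among the 11947 genes tested. RNA came from pathogenic Th17 cells, helper T cells that make interleukin-17, grown from naive CD4 T cells of C57BL/6 mice by 2 days on plates coated with antibodies to CD3 and CD28 with the cytokines IL-1b, IL-6 and IL-23. The group called Stim1KO Stat3C (Stim1fl/fl Stat3CSTOPfl/fl CD4-Cre, 3 libraries) was set against the group called Stat3C (Stat3CSTOPfl/fl CD4-Cre, 3 libraries). Both carry Stat3C, a STAT3 that stays active without cytokine, and both carry Cre under the Cd4 promoter, which is active in all T cells that have passed through the CD4 stage of the thymus. The groups therefore differ by the loss of Stim1, the calcium sensor of the endoplasmic reticulum, and neither has normal STAT3 control. The ages of the mice are not given in the labels.

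Follicular helper T cells sit in the B cell follicles of lymph nodes and help B cells form germinal centres and make high-affinity antibody. BCL6, a repressor, directs their fate and is opposed by the repressor BLIMP-1, encoded by Prdm1. IL-21 is their main cytokine, Th17 cells make it too, and it signals through IL-21R and the common gamma chain to JAK1, JAK3 and STAT3. ICOS and CD28 supply costimulation, and the SLAM receptors, which signal through the adaptor SAP encoded by Sh2d1a, hold T and B cells together.

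Of the 9 genes, 4 rose in Stim1KO Stat3C (Il21, Il21r, Icos and Cd28), 1 fell (Cd200) and 4 did not pass the test (Bcl6, Sh2d1a, Slamf6 and Pou2af1). A gene was called when its adjusted p was under 0.05 in limma, two-sided, with Benjamini-Hochberg adjustment over all 11947 genes. Over those genes 8.62% were called higher and 4.96% lower, and the counts of each list below stand against the same shares. The median log2 fold change of the 9 genes was 0.30, against -0.00115 over all genes tested. The 3 values of each group did not overlap for 6 members, 4 higher and 2 lower (Bcl6 and Cd200), against 19.2% higher and 16.4% lower, 35.6% in all, over all genes tested. A fold change is the difference of the group means of log2(value + 1), Stim1KO Stat3C minus Stat3C, which understates that of low genes. Values are normalised read counts unless stated otherwise, as mean ± SD with n = 3 per group where not given by library. Without Stat3C replicate 2, a library that stands apart, 4 members were higher and 2 lower (Bcl6 was added), against 14.3% and 9.98% of all genes. With any other single library left out, 2 to 4 members were higher and 0 lower. Of all genes tested, 477 to 788 were then higher and 140 to 358 lower.

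The promoters of the ligand, its receptor and Bcl6 are shown because Il21 and Il21r rose together while Bcl6 lay lower without passing the test. The motifs were taken because calcium acts on T cell genes through NFAT and IL-21 through STAT3. These windows were chosen after the values were seen, and a link of the motifs to direction was not tested. The windows run from 250 bases before to 50 after the annotated start (RefSeq, GRCm38.p6), 5′ to 3′ on the gene's strand, and 6 of the 9 genes were matched. Capitals mark the NFAT core GGAAA on either strand, the STAT palindrome TTCNNNGAA and the AP-1 motif TGANTCA, and the NFAT core and the STAT motif may overlap. The windows are chr3:37232587-37232886 on the minus strand for Il21, chr7:125603179-125603478 on the plus strand for Il21r, and chr16:23988803-23989102 and chr16:23981234-23981533 on the minus strand for the 2 starts of Bcl6.
Il21: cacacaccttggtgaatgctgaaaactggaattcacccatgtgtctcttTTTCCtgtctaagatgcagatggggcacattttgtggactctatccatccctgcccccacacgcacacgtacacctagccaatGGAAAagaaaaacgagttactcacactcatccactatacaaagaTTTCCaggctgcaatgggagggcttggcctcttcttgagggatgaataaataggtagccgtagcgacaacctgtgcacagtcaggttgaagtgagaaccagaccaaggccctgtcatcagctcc
Il21r: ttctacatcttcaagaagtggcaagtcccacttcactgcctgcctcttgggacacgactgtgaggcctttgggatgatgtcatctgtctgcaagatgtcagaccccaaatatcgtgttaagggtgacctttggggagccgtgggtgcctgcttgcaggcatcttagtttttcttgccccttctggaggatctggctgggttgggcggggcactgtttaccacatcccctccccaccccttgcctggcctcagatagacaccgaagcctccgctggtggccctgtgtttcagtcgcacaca
Bcl6, start 1: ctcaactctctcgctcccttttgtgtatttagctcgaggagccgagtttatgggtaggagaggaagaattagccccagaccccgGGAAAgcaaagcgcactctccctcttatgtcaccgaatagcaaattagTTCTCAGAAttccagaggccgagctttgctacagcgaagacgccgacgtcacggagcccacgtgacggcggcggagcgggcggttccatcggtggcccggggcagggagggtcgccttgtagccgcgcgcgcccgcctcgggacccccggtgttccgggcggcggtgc
Bcl6, start 2: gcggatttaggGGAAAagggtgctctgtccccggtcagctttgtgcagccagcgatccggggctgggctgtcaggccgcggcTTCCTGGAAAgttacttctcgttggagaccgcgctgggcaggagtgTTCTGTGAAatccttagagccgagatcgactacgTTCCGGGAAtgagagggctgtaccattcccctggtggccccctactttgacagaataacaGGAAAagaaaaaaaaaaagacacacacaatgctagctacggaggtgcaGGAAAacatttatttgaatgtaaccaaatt
The Il21 window held 3 NFAT cores, whose first bases lay at -201, -118 and -74 from the start, and neither of the other motifs. The Il21r window held none of the 3 motifs. Start 1 of Bcl6 had 1 NFAT core and 1 STAT motif, and start 2 had 4 NFAT cores and 3 STAT motifs, TTCCTGGAA, TTCTGTGAA and TTCCGGGAA, the first of which overlaps an NFAT core. The matched windows not shown are those of Cd200, the member called lower, and Slamf6, which held none of the motifs, and Pou2af1, with 1 NFAT core. Of 32851 promoters of the same length, 61.3% held an NFAT core (median 1 match), 8.3% a STAT motif and 7.81% an AP-1 motif. A match is a description of these letters and not of binding, and the data hold no measure of binding.

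Recovered read totals ran over a 3.21-fold range, 16009755 to 51347367 per library, and each member had 257 to 22245 reads in every library. Stim1 stood at 811, 794 and 687 in Stim1KO Stat3C and 1999, 1969 and 1931 in Stat3C. Stat3C replicate 2 stood apart: its root mean square log2 difference from the other 2 Stat3C libraries was 0.764 and 0.861, against 0.388 to 0.532 for all other pairs within a group. Replicate 3 of each group expressed Xist (11549 and 8362, against at most 3.53 elsewhere) and had at most 1.99 counts of any of 4 Y-linked genes, so each group held cells of both sexes. Of 8 T cell markers 6 were higher and none lower by limma, with 1, Cd247, lower at an unadjusted p under 0.05 and by DESeq2 and none by edgeR. The number higher was 1 without Stim1KO Stat3C replicate 1 and 3 without Stat3C replicate 1 or 3, and 1 was lower without Stat3C replicate 2. Among 9 tested Th17 markers 3 were lower, Il17a and Il17f among them, and Ahr was higher. Nothing in the labels says that the libraries of a group came from separate mice or cultures, and the p-values cover only the spread among these libraries, part of which can be technical. In bulk RNA, fewer cells expressing a gene and less RNA per cell cannot be told apart.

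**Figure D1:**
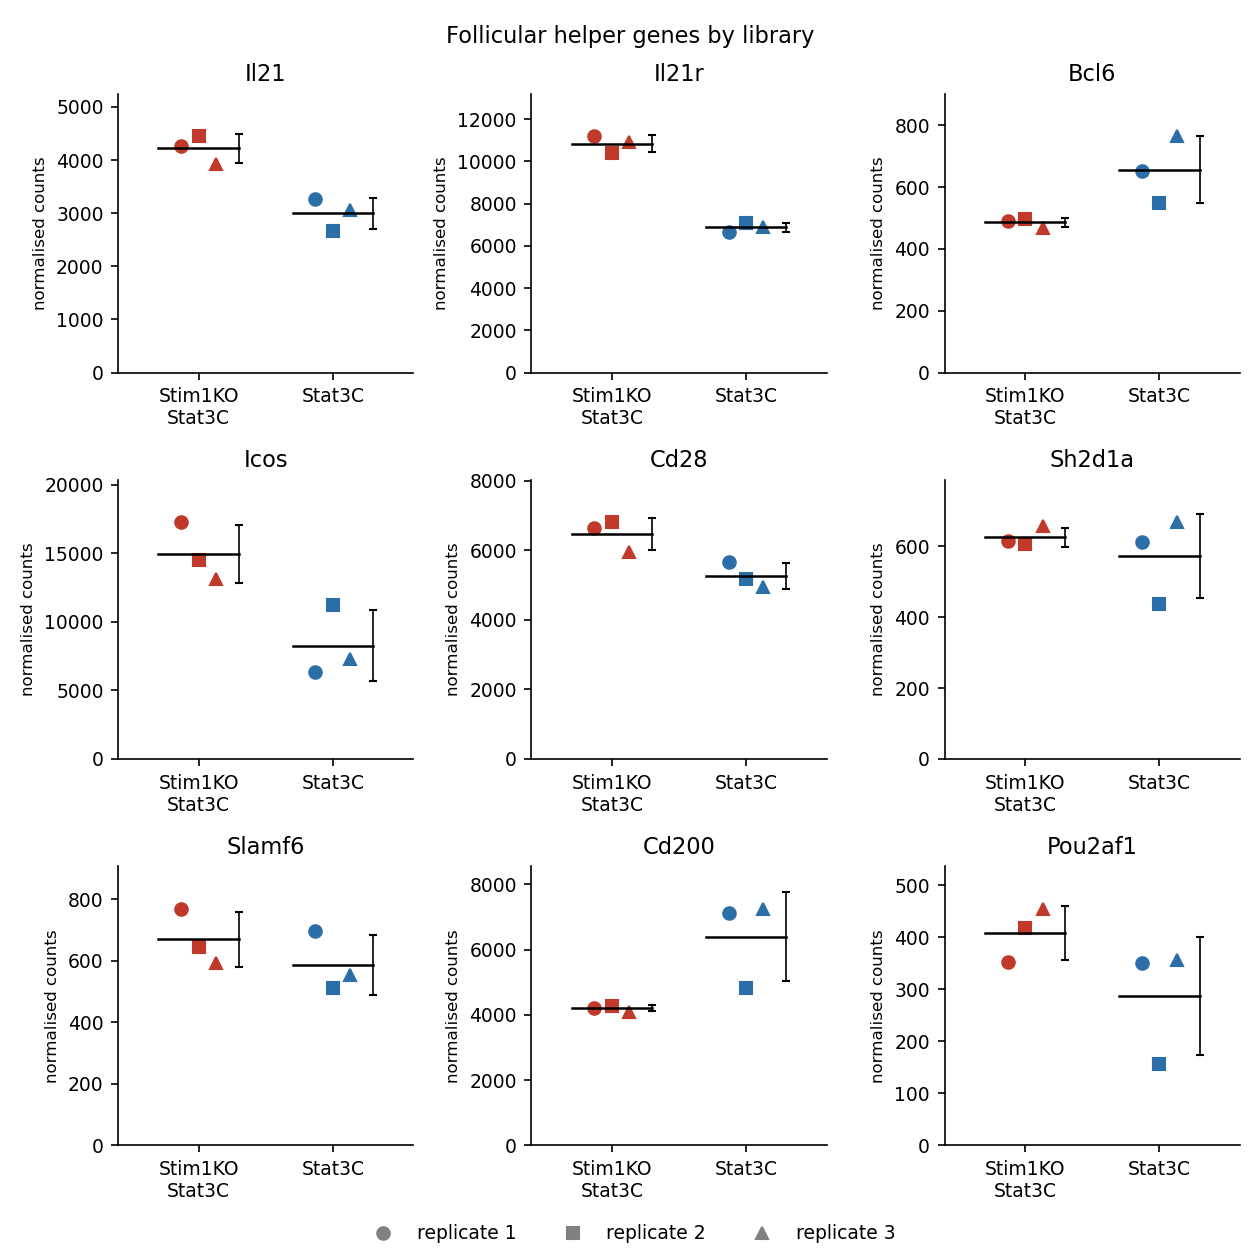
Normalised read counts (y axis, from 0) of the 9 genes in each library, Stim1KO Stat3C on the left (red) and Stat3C on the right (blue); marker shapes give the replicate, horizontal lines the mean and bars the SD. Il21, Il21r, Icos and Cd28 lie higher in all 3 Stim1KO Stat3C libraries, and Bcl6 and Cd200 lower. Stat3C replicate 2 (blue square) lies away from the other Stat3C libraries for Icos, Cd200, Sh2d1a and Pou2af1.

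The ligand and its receptor rose together. Il21 (chromosome 3, 37222759 to 37232636, minus strand, GRCm38), the cytokine gene, had 4273, 4451 and 3930 normalised counts in Stim1KO Stat3C, against 3259, 2673 and 3050 in Stat3C. All 3 Stim1KO Stat3C values lay above all Stat3C values, with a mean of 4218 ± 265 against 2994 ± 297, 1.41-fold higher (log2 0.50, SE 0.08, adjusted p = 0.00835, limma). Il21r (chromosome 7, 125603429 to 125633570, plus strand) encodes the receptor chain that binds IL-21. It had 11204, 10398 and 10908 in Stim1KO Stat3C, against 6670, 7080 and 6910 in Stat3C. The groups were far apart relative to their spread, 10836 ± 408 against 6887 ± 206, a 1.57-fold difference (log2 0.65, SE 0.05, adjusted p = 0.000564, limma). Il21 and Il21r passed the test in all 18 alternative settings. Il21 shares 469 exon bases with an antisense gene, Gm12534, and since the strand setting of the counting is not given, reads of these bases cannot be assigned to one or the other.

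Genes of the pathway behind the receptor moved both ways. Of 15 genes of IL-21 receptor signalling 4 rose, 3 fell and 8 did not pass, with a median log2 fold change of 0.15. Over all genes tested 8.62% were called higher and 4.96% lower. Il2rg, the common gamma chain shared with the IL-2 receptor, stood at 10126 ± 376 in Stim1KO Stat3C and 9103 ± 148 in Stat3C (log2 0.15, adjusted p = 0.0709, limma). Jak3, the kinase bound to that chain, rose to 9950 ± 694 in Stim1KO Stat3C, against 7748 ± 50.5 in Stat3C. Stat3 itself stood at 20945 ± 445 and 21254 ± 496 (log2 -0.02), and transgene and endogenous reads are not separated. The genes that fell code for STAT4 (1348 ± 98.6 in Stim1KO Stat3C and 2174 ± 55.0 in Stat3C), STAT5A and STAT5B. The other genes of the list that rose were Il10 (2406 ± 1129 in Stim1KO Stat3C and 307 ± 149 in Stat3C), Prdm1 (2385 ± 239 and 535 ± 169) and the granzyme gene Gzmb (29295 ± 10292 and 9943 ± 5407), which kept its call in 1 of the 6 fits with a library left out, that without Stat3C replicate 2. Batf, Socs1 and Socs3, which also lie downstream of STAT3, did not pass (log2 -0.16, 0.24 and 0.17), and neither did Il23r, which lay lower without overlap of the groups (log2 -1.17, adjusted p = 0.0529, limma). With 1 library left out 3 to 7 of the list were higher and 1 to 5 lower. The 7 and the 5 were counted without Stat3C replicate 2, where 14.3% and 9.98% of all genes were called. The count of lower genes was 1 without Stim1KO Stat3C replicate 2 or Stat3C replicate 1 or 3.

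Both costimulatory receptors rose, 1.81-fold for Icos and 1.23-fold for Cd28. Icos (chromosome 1, 60977927 to 61000320, plus strand) is induced on activated T cells and is needed for follicular helper cells. It had 17250, 14515 and 13121 normalised counts in Stim1KO Stat3C, against 6341, 11204 and 7270 in Stat3C. The groups did not overlap, but Stat3C replicate 2 lay much nearer to Stim1KO Stat3C than the other Stat3C libraries. The means were 14962 ± 2100 and 8272 ± 2581, 1.81-fold higher (log2 0.89, SE 0.20, adjusted p = 0.0236, limma). Without Stat3C replicate 2 the log2 fold change was 1.13 (adjusted p = 8.97e-05). The call was lost without Stim1KO Stat3C replicate 1 or 2 and without Stat3C replicate 1 or 3.

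Cd28 (chromosome 1, 60716800 to 60773359, plus strand), the main costimulatory receptor of naive T cells, lies in the same cluster as Icos and Ctla4. It had 6650, 6798 and 5958 in Stim1KO Stat3C, against 5669, 5167 and 4946 in Stat3C. The groups did not overlap and the difference was small, 6469 ± 449 against 5261 ± 371 in the mean (log2 0.30, SE 0.07, adjusted p = 0.0320, limma). It lost its call without Stim1KO Stat3C replicate 1 or 2 and without Stat3C replicate 3. Beside it, the T cell receptor complex genes Cd3e, Cd3d and Cd3g rose by log2 0.27, 0.30 and 0.38, with calls kept in 3, 4 and 2 of the 6 fits with a library left out. Cd247, the zeta chain of the same complex, lay lower without overlap (log2 -0.31, adjusted p = 0.0623, limma). Whether Cd28 moved apart from these general T cell genes was not tested. Per length of exon, Icos stood at 4.63, 3.81 and 3.93 times the level of Cd28 in Stim1KO Stat3C, and at 2.00, 3.87 and 2.62 times in Stat3C. These ratios overlapped through Stat3C replicate 2.

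Among 20 genes of ICOS and CD28 signalling 8 rose, none fell by limma and 12 did not pass, with a median log2 fold change of 0.22. The shares over all genes tested were 8.62% higher and 4.96% lower. No member fell at an unadjusted p under 0.05 or by edgeR, DESeq2 or voom either. Those that rose included the exchange factor Vav1 (6767 ± 194 in Stim1KO Stat3C and 5126 ± 117 in Stat3C) and Grap2, which encodes the adaptor GADS that binds CD28 (1791 ± 236 and 1059 ± 33.9). Pik3ca, a catalytic PI3-kinase subunit, was at 2407 ± 128 and 1794 ± 158. Members that restrain the pathway rose as well: Ctla4, which competes with CD28 for its ligands (23416 ± 4218 and 13516 ± 2181), and Inpp5d, which encodes the phosphatase SHIP1 that opposes PI3-kinase (3487 ± 186 and 2293 ± 422). The number that rose was 10 without Stat3C replicate 2, where 14.3% of all genes were called higher. It was 4 without Stim1KO Stat3C replicate 2, and 5 without Stim1KO Stat3C replicate 1 or Stat3C replicate 1 or 3.

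**Figure D2:**
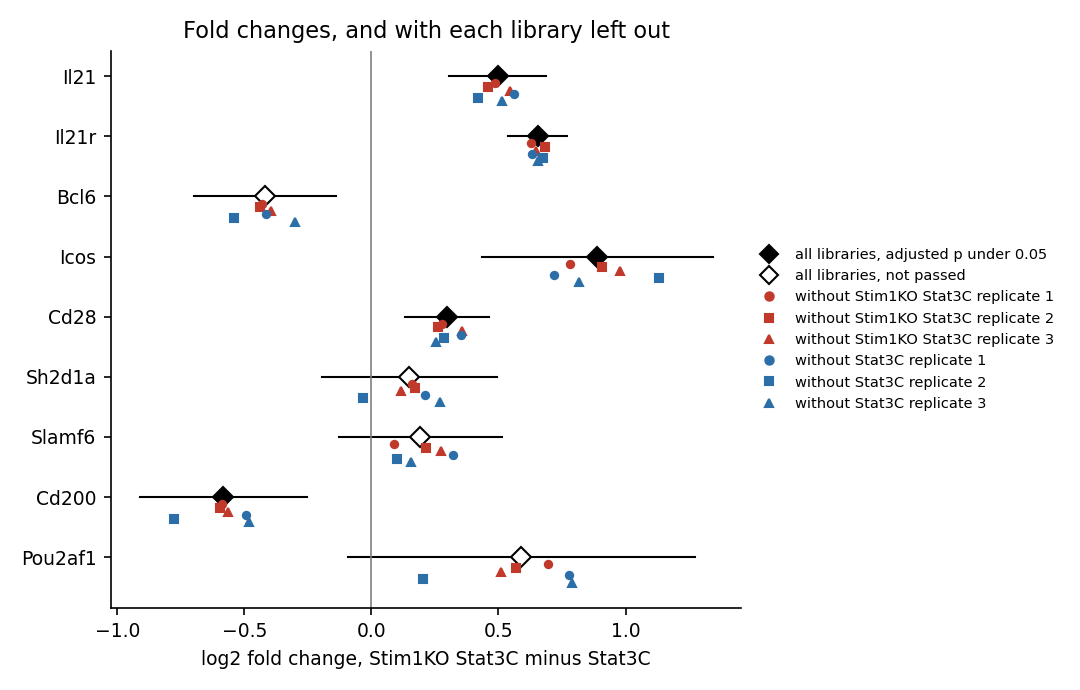
Log2 fold change of each gene (x axis, Stim1KO Stat3C minus Stat3C) in all 6 libraries (diamonds, filled where adjusted p was under 0.05) with its 95% interval (line), and the fold change with each library left out (small symbols below it, red for a Stim1KO Stat3C and blue for a Stat3C library). Il21r moves least (0.63 to 0.68), and leaving out Stat3C replicate 2 (blue squares) carries Sh2d1a to -0.03, Pou2af1 to 0.20, Cd200 to -0.78 and Icos to 1.13.

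Bcl6 lay lower in Stim1KO Stat3C and missed the threshold. Bcl6 (chromosome 16, 23965052 to 23988852, minus strand) had 492, 497 and 469 normalised counts in Stim1KO Stat3C, against 654, 549 and 765 in Stat3C. The Stim1KO Stat3C values were close together and all below the lowest Stat3C value. The means were 486 ± 15.1 and 656 ± 108 (log2 -0.42, SE 0.12, 95% interval -0.70 to -0.14 before adjustment, adjusted p = 0.0569, limma). It passed without Stat3C replicate 2 (log2 -0.54, adjusted p = 0.00464) and by DESeq2 (adjusted p = 0.0187), and in no other of the 18 settings.

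Prdm1, which encodes the BLIMP-1 repressor that opposes BCL6, had 2612, 2136 and 2406 in Stim1KO Stat3C, against 345, 669 and 589 in Stat3C (log2 2.21, SE 0.22, adjusted p = 0.00165, limma). Per kilobase of exon, Bcl6 stood at 0.157, 0.194 and 0.162 of the level of Prdm1 in Stim1KO Stat3C, and at 1.58, 0.683 and 1.08 in Stat3C. The ratio was thus below 1 in every Stim1KO Stat3C library and in Stat3C replicate 2, and the 2 ranges did not overlap. None of 14 tested BCL6 partners, mostly corepressors, was called by limma without a covariate, edgeR, DESeq2 or voom in either direction. With the Xist level as a covariate, limma called 1 higher. Without it 2 lay higher and 1 lower at an unadjusted p under 0.05 in limma. The partner with the most normalised counts, Ncor1, stood at 6243 ± 62.9 and 5828 ± 398, and Ctbp1 at 4941 ± 125 and 5159 ± 216.

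**Figure D3:**
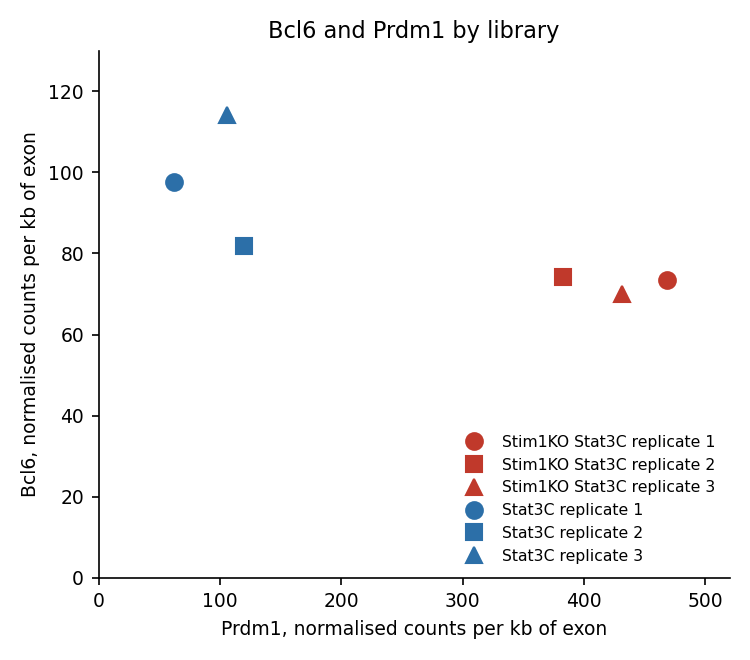
Bcl6 (y axis) against Prdm1 (x axis), both in normalised counts per kilobase of exon and both axes from 0, with 1 point per library. The 3 Stim1KO Stat3C libraries (red) lie to the right with high Prdm1 (mean 427) and Bcl6 of 72.5 on average, and the 3 Stat3C libraries (blue) to the left with Prdm1 of 95.8 and Bcl6 of 97.9.

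Other genes that oppose the follicular helper fate moved both ways. Of 17 such genes 9 rose, 4 fell and 4 did not pass, with a median log2 fold change of 0.34. Over all genes tested 8.62% were called higher and 4.96% lower. The IL-2 receptor chains Il2ra (54983 ± 287 in Stim1KO Stat3C and 36902 ± 663 in Stat3C) and Il2rb (18422 ± 359 and 11049 ± 601), the inhibitor of E proteins Id2 (6132 ± 488 and 3374 ± 526) and the T-box factor Eomes (175 ± 83.4 and 17.8 ± 4.16) rose. Those that fell included Stat5a and Stat5b, which act below the IL-2 receptor, and the lymph node homing receptor gene Ccr7 (3577 ± 579 in Stim1KO Stat3C and 5566 ± 230 in Stat3C). The number that fell was 1 or 2 without any single library other than Stat3C replicate 2.

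The SLAM pair did not pass the test. Sh2d1a (chromosome X, 42502453 to 42529330, plus strand), the adaptor SAP, had 615, 606 and 656 normalised counts in Stim1KO Stat3C, against 612, 438 and 667 in Stat3C. The groups overlapped, and Stat3C replicate 2 was the low library. The log2 fold change was 0.15 (95% interval -0.19 to 0.49, adjusted p = 0.527, limma), and it was -0.03 without Stat3C replicate 2. Its exons share 1465 bases with Tenm1 on the other strand, which had at most 1.01 counts in any library. Slamf6 (chromosome 1, 171917515 to 171953170, plus strand), the receptor Ly108 that signals through SAP, had 768, 645 and 593 in Stim1KO Stat3C, against 697, 512 and 552 in Stat3C. Its groups overlapped too (log2 0.19, 95% interval -0.13 to 0.51, adjusted p = 0.380, limma).

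Of the 9 tested genes of SLAM and SAP signalling 2 rose, 1 fell and 6 did not pass, with a median log2 fold change of 0.10. The shares over all genes tested were 8.62% higher and 4.96% lower. Fyn, the kinase that SAP recruits, rose (4998 ± 466 in Stim1KO Stat3C and 3897 ± 241 in Stat3C), as did Inpp5d, given above. The receptor gene Slamf1 fell (1056 ± 58.6 and 1335 ± 44.4, log2 -0.34). With 1 library left out 0 to 2 rose and 0 or 1 fell. None rose without Stim1KO Stat3C replicate 3 or Stat3C replicate 1 or 3, and 1 without Stim1KO Stat3C replicate 1 or 2. None fell without Stim1KO Stat3C replicate 1 or 2 or Stat3C replicate 1 or 3.

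Cd200 was the member that fell. Cd200 (chromosome 16, 45382135 to 45409053, minus strand) encodes a membrane glycoprotein that quiets cells bearing its receptor and marks follicular helper cells as well as B cells. It had 4219, 4282 and 4098 normalised counts in Stim1KO Stat3C, against 7129, 4820 and 7251 in Stat3C. Stat3C replicate 2 was again the exception, close to but above the Stim1KO Stat3C values. The means were 4200 ± 93.7 and 6400 ± 1369 (log2 -0.58, SE 0.14, adjusted p = 0.0334, limma). Without Stat3C replicate 2 the log2 fold change was -0.78 (adjusted p = 1.8e-05), and without any other single library the call was lost. On the receptor side of the CD200 pathway 3 of 6 tested genes rose and none fell by limma, also with any single library left out, at an unadjusted p under 0.05, or by edgeR, DESeq2 or voom: the receptor gene Cd200r1 (267 ± 68.5 in Stim1KO Stat3C and 111 ± 11.1 in Stat3C, log2 1.23), the adaptor Dok2 that it recruits (2085 ± 118 and 1155 ± 133) and the Ras inhibitor Rasa1 (1374 ± 80.7 and 923 ± 26.5).

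Pou2af1 (chromosome 9, 51213708 to 51240080, plus strand), which encodes OCA-B, a coactivator of octamer-binding factors in B cells and activated T cells, had 352, 419 and 455 normalised counts in Stim1KO Stat3C, against 350, 157 and 356 in Stat3C. Stat3C replicate 2 was far below the rest, the groups overlapped, and the gene did not pass (log2 0.59, 95% interval -0.09 to 1.27, adjusted p = 0.216, limma). Without that library the log2 fold change was 0.20. None of 5 tested OCA-B partners was called by limma, edgeR, DESeq2 or voom, or had an unadjusted p under 0.05 in limma. Kdm4a, a histone demethylase, stood at 2328 ± 124 and 2125 ± 46.8 and Kdm3a at 1612 ± 55.5 and 1519 ± 70.7.

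Bcl6, Cd200 and Pou2af1 are also B cell genes, and the B cell markers other than Cd74 were in sum scarcer in Stim1KO Stat3C. Of 14 B cell markers 9 could be tested, of which 5 fell (among them Cd79a, Ebf1, Blnk and Bank1), none rose (0 also at an unadjusted p under 0.05 in limma and by edgeR, DESeq2 and voom) and 4 did not pass. The number that fell was 6 by edgeR and DESeq2 and 3 by voom, and 2 without Stat3C replicate 1 or 3. Without Cd74, which activated T cells and myeloid cells can also express, the summed level was 105, 69.8 and 95.5 normalised counts in Stim1KO Stat3C, against 466, 269 and 669 in Stat3C. With Cd74 it was 1008, 558 and 721 in Stim1KO Stat3C, against 879, 2427 and 1226 in Stat3C. The groups then overlapped, and Stat3C replicate 2 was the highest library. In the sum without Cd74, Stat3C replicate 2 was the lowest and replicate 3 the highest Stat3C library. The Stat3C libraries stood in the same order for Cd200, and for Bcl6, Pou2af1 and Sh2d1a, which were not called. None of these genes had the Stim1KO Stat3C libraries in the order of that sum. Ms4a1, Blnk, Fcer2a, Vpreb3 and Fcrla were at 0 in all 3 Stim1KO Stat3C libraries, and no B cell marker was at 0 in all Stat3C libraries. Of 3 tested CD8 and NK markers Cd8a (6.85, 5.37 and 17.9 in Stim1KO Stat3C, against 150, 87.6 and 184 in Stat3C) and Cd8b1 (128 ± 23.5 and 243 ± 46.5) fell, none rose, and 1 did not pass. Cd8b1 kept its call without Stim1KO Stat3C replicate 1 or Stat3C replicate 2 and lost it without any other single library. Of 6 tested myeloid markers Mpeg1 fell, Cd68 rose and 4 did not pass. Without Cd68, the myeloid sum was 37.0, 55.8 and 62.7 in Stim1KO Stat3C, against 103, 428 and 61.0 in Stat3C, highest in Stat3C replicate 2. With Cd68 it was 401, 373 and 459 in Stim1KO Stat3C, against 240, 567 and 176 in Stat3C. Stat3C replicates 1 and 3 were then the lowest libraries and replicate 2 again the highest. The part of these cell types in the values of Bcl6, Cd200 and Pou2af1 was not tested.

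**Figure D4:**
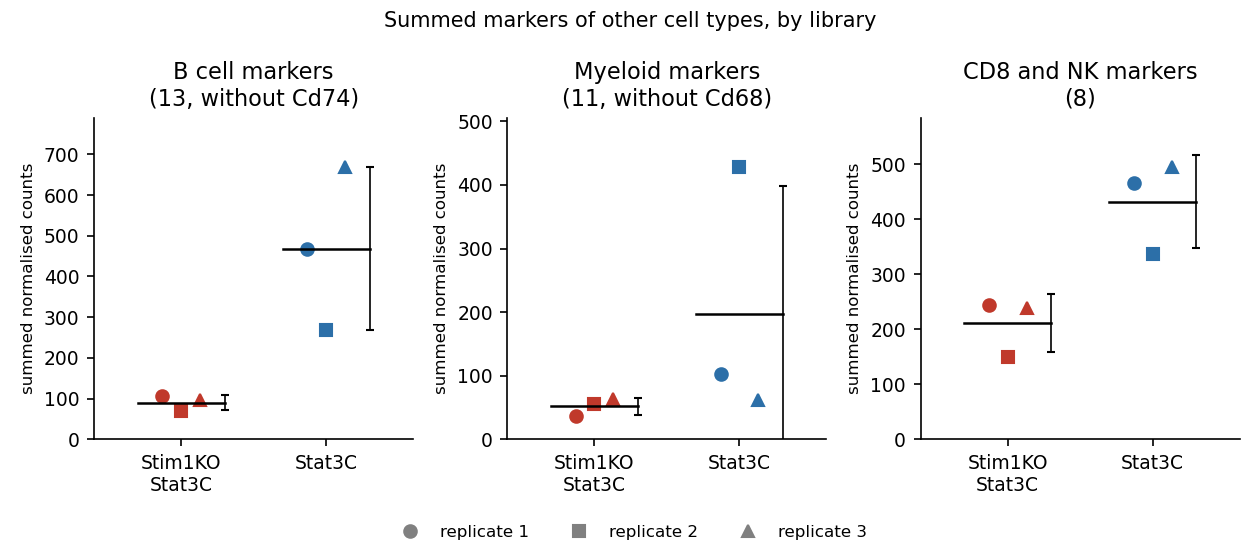
Summed normalised counts (y axis, from 0) of the markers of other cell types by library, Stim1KO Stat3C on the left (red) and Stat3C on the right (blue), with the mean (line) and SD (bar, drawn down to 0 at most). The B cell sum without Cd74 is 69.8 to 105 in Stim1KO Stat3C and 269 to 669 in Stat3C. With Cd74, which is not drawn, the groups overlap. In the myeloid sum without Cd68, Stat3C replicate 2 (428) lies above all other libraries.

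Beyond the 9 genes, 33 other genes of follicular helper cells could be tested. The shares over all genes tested were 8.62% higher and 4.96% lower. Of the 33 genes 8 rose, 2 fell and 23 did not pass, with a median log2 fold change of 0.19. The largest increase was that of Sostdc1, a secreted inhibitor of WNT signalling, with 134, 66.6 and 28.9 normalised counts in Stim1KO Stat3C, against 0.866, 3.53 and 1.94 in Stat3C. Maf, a transcription factor that drives Il21 in follicular helper cells, rose to 1789 ± 293 in Stim1KO Stat3C, against 363 ± 31.0 in Stat3C (log2 2.29). Angptl2 (719 ± 214 and 187 ± 31.0), the ecto-enzyme gene Nt5e (371 ± 54.8 and 152 ± 25.9) and the ATP receptor gene P2rx7, which restrains follicular helper cells in the gut (342 ± 92.2 and 142 ± 26.8), rose as well. Tcf7, which encodes TCF1, a factor that promotes Bcl6, fell to 4501 ± 483 in Stim1KO Stat3C, against 8653 ± 578 in Stat3C (log2 -0.95). The other gene that fell was Slamf1.

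Of the defining receptors of the cell type, Cxcr5, the chemokine receptor that leads cells into the follicle, rose to 619 ± 65.0 in Stim1KO Stat3C, against 395 ± 59.7 in Stat3C (log2 0.65, SE 0.13, adjusted p = 0.0160, limma), and Pdcd1, encoding PD-1, stood at 1512 ± 345 and 1192 ± 398 and did not pass (log2 0.38, 95% interval -0.24 to 1.003, adjusted p = 0.370, limma). Ascl2, a factor that induces Cxcr5, was under the filter at 17.8, 10.7 and 4.98 in Stim1KO Stat3C and 6.49, 6.55 and 5.81 in Stat3C. Cxcr5, Pdcd1 and Ascl2 were chosen after their values were seen. With 1 library left out 6 to 11 of the list rose and 1 to 6 fell. The 6 that fell were counted without Stat3C replicate 2, where 9.98% of all genes were called lower. Only 1 fell without Stim1KO Stat3C replicate 1 or 2 or Stat3C replicate 1 or 3.

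**Figure D5:**
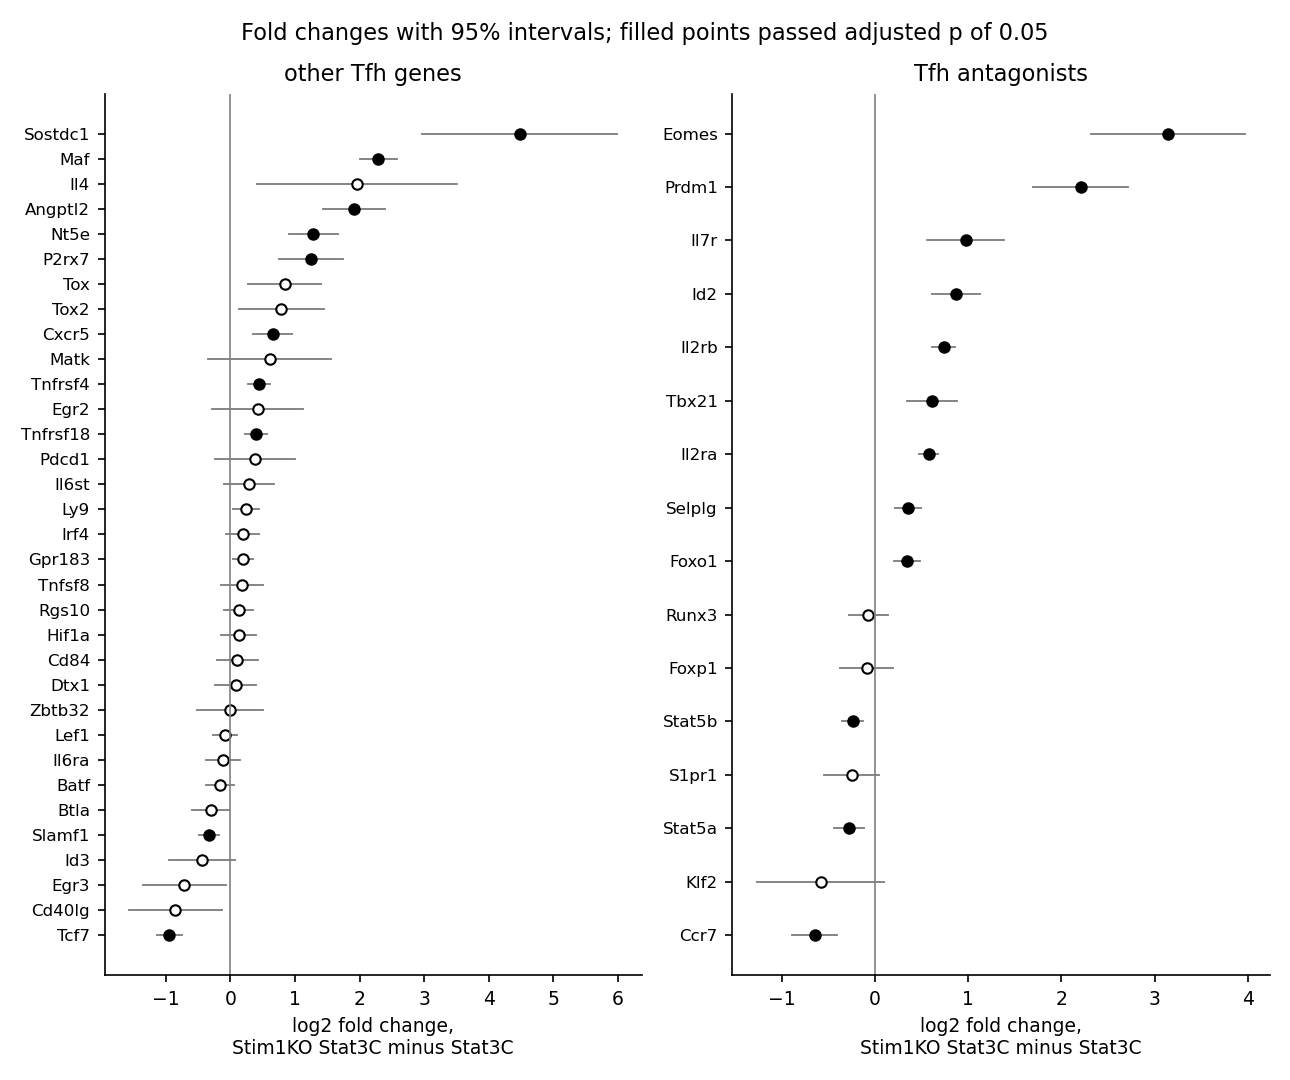
Log2 fold change (x axis, Stim1KO Stat3C minus Stat3C) with its 95% interval for the 33 tested other follicular helper genes (left) and 16 of the 17 genes that oppose the fate (right); filled points had an adjusted p under 0.05. Sostdc1 (4.47) and Maf (2.29) lead the left panel and Tcf7 (-0.95) ends it, while Eomes (3.15), Prdm1 (2.21) and Ccr7 (-0.65) stand at the ends of the right panel.

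The 9 genes spanned a wide range of level per length, and the order of their means was the same in both groups, though not in every library. In normalised counts per kilobase of exon, Icos was highest (4362 ± 612 in Stim1KO Stat3C and 2412 ± 753 in Stat3C), followed by Il21r (3260 ± 123 and 2072 ± 61.9), Cd200 (1265 ± 28.2 and 1927 ± 412), Cd28 (1057 ± 73.3 and 859 ± 60.5) and Il21 (802 ± 50.4 and 569 ± 56.4). Well below them stood Pou2af1 (160 ± 20.5 and 113 ± 44.3), Sh2d1a (114 ± 4.85 and 104 ± 21.7), Bcl6 (72.5 ± 2.25 and 97.9 ± 16.2) and Slamf6 (61.8 ± 8.30 and 54.2 ± 8.97). Neighbours whose libraries overlapped were Bcl6 and Slamf6 in Stim1KO Stat3C. In Stat3C they were Icos with Il21r, Il21r with Cd200, Pou2af1 with Sh2d1a and Sh2d1a with Bcl6. Cd200 stood above Icos and Il21r in Stat3C replicate 1 (2147 against 1849 and 2007) and replicate 3 (2183 against 2120 and 2079). In Stat3C replicate 2, Bcl6 (81.9) and Sh2d1a (79.6) stood above Pou2af1 (61.6).

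Among 10250 genes with a mean of at least 50, the gene whose pattern over the 6 libraries was most like that of Il21 was Dhrs7, a dehydrogenase gene, at a root mean square log2 difference of 0.0383 after each gene's own mean was subtracted, followed by the zinc finger genes Zfp248 (0.0476) and Zfp846 (0.0610). Dhrs7 had 435, 435 and 409 in Stim1KO Stat3C, against 315, 268 and 297 in Stat3C. Of the other members, Cd28 (0.124, rank 128) and Il21r (0.152, rank 338) came nearest to Il21. For Bcl6 the nearest were Snord12 (0.0697), C230052I12Rik (0.0705) and Nme6 (0.0719), and the nearest member was Cd200 (0.123, rank 212). All genes share the same 6 libraries and their group split, so likeness of pattern is a description and nothing more.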

How the data were processed

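Per the labels' protocols, libraries of poly(A) RNA used 100 ng of input and a stranded kit. In the submitters' processing notes are the build mm10 and, without roles, DESeq2 1.22.2, HTSeq 0.11.1 and TopHat2 2.1.1. The strand setting of the counting, the gene models and any filter are not given. The deposited signal per gene is taken as counts that the authors divided by 1 size factor per library, since 100% of non-zero values in each column were whole multiples (within 0.01) of a step of 0.433 to 1.37. That of Stim1KO Stat3C replicate 3, 0.995, is hard to tell from rounding. A 0 allows up to 3 reads, 1.30 to 4.11 normalised counts, for counting error only. Of 23420 rows, 27 with date-like names were left out.

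limma 3.58.1 (R 4.3.3, variance trend, no covariate) was fitted to log2(value + 1) where a gene's mean was at least 10, and called 1623 genes. On recovered reads edgeR 4.0.16 called 1507 and DESeq2 1.42.0 called 2250. The fit was also run on simulated counts with the same dispersion for every gene and no library standing apart. That run cannot show how the fit behaves with a library like Stat3C replicate 2. Intervals are limma's, 95% and unadjusted. Gene positions and exon lengths are from GENCODE M21 (GRCm38). Members and lists were chosen with earlier results of these data known. Of 193 entries in 14 lists, 189 were found. Named are all members, up to 6 called genes per list by adjusted p (the 2 highest in level where none was called), Stim1, Stat3, and the 3 genes nearest in pattern to Il21 and Bcl6. Any others were chosen after their values were seen. A few genes that the rule names are not reported here.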

Additional observations from a re-analysis of the deposited data

How the results depend on the processing

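Over 18 alternative settings Il21 and Il21r kept direction and call, and no member that was called changed sign. Sh2d1a, which was not called, ranged from -0.0313 (without Stat3C replicate 2) to 0.27 (without Stat3C replicate 3). With 1 library left out, 617 to 2899 genes were called, and of the members 2 to 4 were higher and 0 to 2 lower. Without a variance trend 827 genes were called (603 higher and 224 lower), with 2 members higher (Il21 and Il21r) and 0 lower. Of the lists, 1 T cell marker, 3 ICOS and CD28 signalling genes and 5 other follicular helper genes were then higher. Of the genes that oppose the fate 5 were higher and 1 lower. For IL-21 receptor signalling the counts were 3 and 1, and for SLAM and SAP signalling 0 and 1. DESeq2 called 2 members lower (Cd200 and Bcl6) and voom 0. Settings chosen after seeing the data were edgeR without Stim1KO Stat3C replicate 3, with 922 genes called and 0 members lower, and the Xist level as a covariate, with 1816 genes called and 4 members higher and 1 lower. The cause of these shifts was not tested. Median centring lost Cd28 (adjusted p = 0.0508, limma; over all settings 0.00315 to 0.122), and Cd200 lost its call in 8 settings, Icos in 6 and Cd28 in 5. No paired analysis was possible because the labels give no replicate numbers that the groups share. Depth limits Ascl2 and the B cell markers, which rest on few reads.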
